A study of Mus musculus with 5 samples.

Results

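The genes described here are the 19 Wnt ligands, the 10 Frizzled receptors, 8 secreted antagonists of the Sfrp and Dkk families, the 4 R-spondins and their 3 Lgr receptors, measured in mouse forelimbs of controls and of embryos with a conditional deletion of the arginine methyltransferase gene Prmt5. The rule that picks them reads the gene symbol and no measured value, and it found 44 of 22653 single symbols in the deposited table, and each had 1 row. Total RNA was sequenced from forelimbs of E11.5 embryos (47 to 48 somites) whose strain is given as mixed C57BL/6 and Swiss Webster, in 3 samples labelled control, with no further genotype given, and 2 samples of the genotype Prx1Cre+/-;Prmt5c/c, called Prmt5cKO. Prx1Cre recombines in the limb mesenchyme, so the ectoderm and the blood, muscle and vessel cells of the whole forelimb are not its main targets. The labels describe the samples as biological replicates, but the values are 1 FPKM per genotype, a fragment count corrected for transcript length and library size. No SD or standard error can therefore be given, and sequencing depth is not known.

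Wnt proteins are lipid-modified signals. They are acylated by Porcn, carried to the cell surface by Wls, and bind Frizzled receptors together with the co-receptors Lrp5 and Lrp6, which stabilises beta-catenin, or with Ror and Ryk receptors in branches that do not use beta-catenin. Sfrp proteins bind Wnts outside the cell, Dkk proteins of the Dkk1 type block Lrp5 and Lrp6, and R-spondins act through Lgr receptors and the ubiquitin ligases Znrf3 and Rnf43 to keep Frizzled receptors on the surface. In the limb bud, Wnt3 of the ectoderm is needed for the apical ridge, Wnt7a of the dorsal ectoderm for dorsal identity, and Wnt5a of the distal mesenchyme for outgrowth.

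The promoters of the secreted members Wnt11, Sfrp2 and Dkk2 and of the receptor Lgr4, all of which fell, are shown so that the start regions of genes past the threshold can be set beside each other. Each run is the 250 bases before the transcription start on the plus strand of GRCm38.p6 from RefSeq, at chr7:98834862-98835111 for the upstream of the 2 Wnt11 starts, chr3:83766071-83766320, chr3:132085042-132085291 and chr2:109917397-109917646. Capitals mark the letters CTTTGA, a core of the site of the beta-catenin partners Tcf and Lef, or TATAAA, the core of a TATA box, on either strand.
Wnt11: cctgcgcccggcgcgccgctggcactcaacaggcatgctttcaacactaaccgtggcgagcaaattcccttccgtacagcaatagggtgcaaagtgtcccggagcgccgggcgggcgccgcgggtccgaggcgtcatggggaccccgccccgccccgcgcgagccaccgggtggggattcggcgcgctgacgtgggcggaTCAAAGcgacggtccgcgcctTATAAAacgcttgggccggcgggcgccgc
Sfrp2: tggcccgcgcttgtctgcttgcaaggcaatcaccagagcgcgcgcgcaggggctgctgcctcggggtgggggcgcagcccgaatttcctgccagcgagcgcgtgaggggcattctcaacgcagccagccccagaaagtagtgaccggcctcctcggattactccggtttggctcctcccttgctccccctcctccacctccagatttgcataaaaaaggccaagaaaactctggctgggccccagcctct
Dkk2: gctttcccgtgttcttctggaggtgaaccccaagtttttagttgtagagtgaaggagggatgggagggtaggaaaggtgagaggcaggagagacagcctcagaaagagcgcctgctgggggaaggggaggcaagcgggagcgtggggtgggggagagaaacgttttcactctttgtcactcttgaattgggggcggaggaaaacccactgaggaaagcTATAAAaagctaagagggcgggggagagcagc
Lgr4: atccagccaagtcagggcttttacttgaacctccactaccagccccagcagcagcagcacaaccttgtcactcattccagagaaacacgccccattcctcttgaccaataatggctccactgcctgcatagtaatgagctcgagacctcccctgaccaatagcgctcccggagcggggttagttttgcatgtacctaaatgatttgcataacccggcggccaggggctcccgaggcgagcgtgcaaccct

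In the upstream Wnt11 window CTTTGA was found on the minus strand, where the plus strand reads TCAAAG, starting at -50 from the transcription start. TATAAA was found there at -29. The window of the other Wnt11 start held neither run of letters. Dkk2 held TATAAA at -32, while the windows of Sfrp2 and Lgr4 held neither. RefSeq windows were matched for 29 of the 44 members (32 starts), and CTTTGA was present in 4 of these starts (12.5%) against 13.8% of 32851 windows of the same length over all genes. TATAAA was present in 12.5% of the members' windows and in 12.4% of all windows. Of the 8 starts matched for members past the threshold, 1 held CTTTGA and 2 (25%) held TATAAA. These starts belong to 7 genes, since Wnt11 has 2 of them. The windows of Fzd5, Fzd9 and Fzd10, which are not shown, held neither run of letters. No window was matched for Rspo2, Rspo3, Fzd2, Fzd3 and Fzd8. The windows of all 32 member starts were richer in G and C, with a median of 67.4% against 52.4% over all windows. They held a median of 22 CpG dinucleotides against 6 over all windows, which include those of non-coding genes.

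Prmt5 was measured at 40.9 FPKM in control and 12.5 in Prmt5cKO (30.6% of control). The mesenchymal markers Prrx1 (122 and 107 FPKM), Prrx2 (96.7 and 105) and the forelimb factor Tbx5 (23.0 and 19.9) were abundant in both genotypes, and the hindlimb factor Pitx1 was at 0.143 and 0.268, although Tbx4, the other hindlimb marker, stood at 3.81 and 2.95. Sex-linked transcripts differed too, with Xist at 87.3 and 0.392 FPKM and Ddx3y at 0.0840 and 21.8, so the sex of the embryos and their genotype cannot be told apart in any difference below. None of the 44 members lies on the X or Y chromosome in GENCODE M21. The tissue was bulk, so fewer cells of a type and less RNA per cell cannot be told apart either.

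A gene was counted as changed where its mean over the genotypes was at least 1 FPKM and its q-value, the adjusted p-value in the authors' deposited table, was under 0.05. Of the 44 members 29 reached this mean. Of these, 10 fell (Wnt11, Fzd2, Fzd3, Fzd5, Fzd8, Fzd9, Sfrp2, Dkk2, Rspo3 and Lgr4), 2 rose (Fzd10 and Rspo2), 16 did not pass and 1 (Wnt5a) was not tested by the authors. Over all 11674 single genes at this level 17.6% fell and 4.39% rose, against 34.5% and 6.90% of the members. Of the 17 members with a mean of at least 5 FPKM 8 fell and 1 rose, and over all 8483 genes at that level 18.2% fell and 4.57% rose. The median log2 ratio of Prmt5cKO to control, with 1 FPKM added to both, was -0.16 over the members and -0.12 over all genes. The members' median is thus close to that of all genes, although more of them passed. Set out by role, the median was -0.04 for the ligands, -0.27 for the Frizzled receptors, -0.33 for the antagonists, -0.08 for the pair of R-spondins and -0.29 for the pair of Lgr receptors at this level. These are descriptions of the classes, which were not tested against each other.

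**Figure D1:**
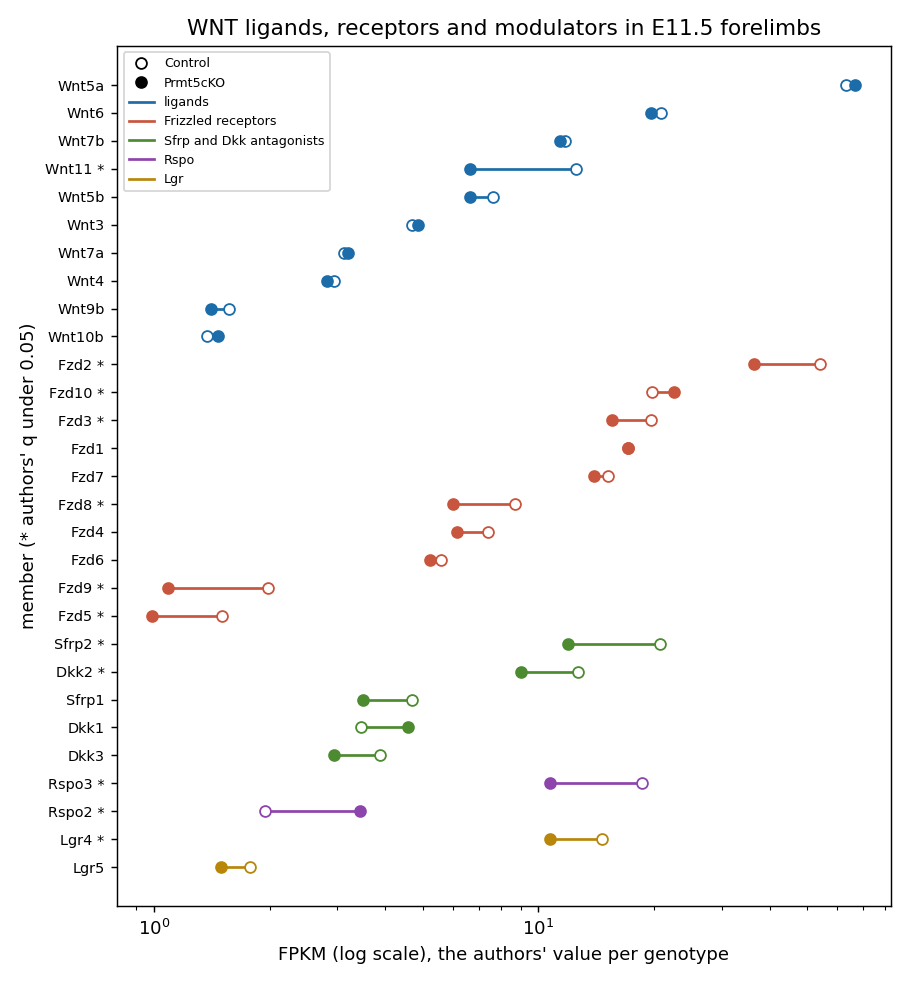
FPKM on a log scale for the 29 members with a mean of at least 1 FPKM, with open circles for control, filled circles for Prmt5cKO and a line joining the pair; each circle is the authors' single value per genotype, and an asterisk marks a q under 0.05. Apart from Wnt11 the ligands lie close together in both genotypes, while Sfrp2, Rspo3 and Wnt11 are among the longest lines to the left and Rspo2 is the longest to the right.

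Among the ligands Wnt11 was the member that changed. Wnt11, which acts largely through branches that do not use beta-catenin, went from 12.5 FPKM to 6.66, or 53.2% of control. The authors' deposited table lists its log2 fold as -0.91 and its q as 0. The other 9 ligands that reached 1 FPKM were all within 15% of their control value, and of these the 8 that were tested did not pass. So 1 of 10 ligands fell, below the 17.6% of all genes, and none rose. In the order of levels Wnt11 stood just above Wnt7b in control and just below it in Prmt5cKO.

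Wnt5a, the ligand of distal outgrowth, was the most abundant member of the whole set in either genotype. Its values were 63.1 FPKM in control and 66.9 in Prmt5cKO. It made up 47.4% of the summed FPKM of all 19 ligands in control and 52.2% in Prmt5cKO. No test by the authors is given for it, since its fold is listed as 0 with a q of 1 beside unequal FPKM values. Its relative Wnt5b, a second non-canonical ligand, was at 7.64 and 6.64 FPKM, with q = 0.435 by the authors' deposited table. The summed FPKM of the ligands was 133 in control and 128 in Prmt5cKO, 96.1% of control, and 87.3% without Wnt5a.

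Ligands made in the limb ectoderm did not pass the threshold, 5 of 5 at this level, where 17.6% of all genes fell and 4.39% rose. Wnt6, second in the order of ligands, was at 20.8 FPKM in control and 19.6 in Prmt5cKO. Wnt7b was at 11.7 and 11.4 FPKM and Wnt3, the ligand needed for the ridge, at 4.69 and 4.87. These 3 ligands lay between 94.1% and 104% of their control values. Wnt7a, the dorsal signal, was at 3.13 and 3.20 FPKM, and Wnt10b at 1.38 and 1.47. The smallest q among these 5 was 0.746, for Wnt6, in the authors' deposited table. The summed FPKM of the 6 ectodermal ligands, Wnt10a included, was 42.5 in control and 41.3 in Prmt5cKO. The 11 surface ectoderm markers summed to 178 and 172 FPKM, with Krt14 at 61.9 and 58.0 and Cdh1 at 6.14 and 6.23. Of these markers 2 rose (Epcam and Tfap2a, 18.2%) and 1 fell (Krt15, 9.09%), against 4.39% and 17.6% of all genes.

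Wnt4, Wnt9a and Wnt16 are ligands of the forming joints. Wnt4, also made in ectoderm, was at 2.94 FPKM in control and 2.82 in Prmt5cKO. The other two were under the minimum, Wnt9a at 0.827 and 0.630 FPKM and Wnt16 at 0.613 and 0.535, and the authors' deposited table gives them q-values of 0.469 and 0.865. In the same forelimbs the joint gene Gdf5 went from 12.9 to 2.67 FPKM, past the threshold. Wnt9b, at 1.57 and 1.41 FPKM, did not pass.

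Frizzled receptors, the seven-span receptors that bind Wnts, all reached 1 FPKM, and 5 of the 10 fell while 1 rose, against 17.6% and 4.39% of all genes. Fzd2, the most abundant of them, fell from 54.2 FPKM in control to 36.5 in Prmt5cKO, for which the authors' deposited table lists a log2 fold of -0.57 and q = 4.69e-05. It held 35.9% of the summed FPKM of the receptors in control and 29.1% in Prmt5cKO. Fzd8 fell from 8.70 to 6.00 FPKM and Fzd3 from 19.6 to 15.5. The authors' deposited table lists log2 folds of -0.54 (q = 3.38e-06) for Fzd8 and -0.34 (q = 0.0263) for Fzd3. Fzd5 and Fzd9, the least abundant receptors, also fell. Fzd5 went from 1.5 to 0.990 FPKM (by the authors' deposited table a log2 fold of -0.60, q = 0.00184). Fzd9 went from 1.98 to 1.09 FPKM, and its q of 0.04998 in the authors' deposited table lies just inside the threshold.

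Fzd10 rose, from 19.8 FPKM in control to 22.6 in Prmt5cKO. This was the smallest change among the 12 members past the threshold, listed in the authors' deposited table as a log2 fold of 0.19 with q = 0.0336. It was second in the order of Frizzled levels in both genotypes, and its share of the receptors' summed FPKM was 13.1% in control and 18.0% in Prmt5cKO. Fzd1 was at 17.2 FPKM in both genotypes and Fzd7 at 15.2 and 14.0. Fzd4 was at 7.38 and 6.16 FPKM, Fzd6 at 5.59 and 5.22, and none of these 4 passed. Fzd3 was above Fzd1 in control and below it in Prmt5cKO, and Fzd8 likewise changed places with Fzd4. Summed over the 10 receptors the FPKM was 151 in control and 125 in Prmt5cKO, 82.8% of control.

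**Figure D2:**
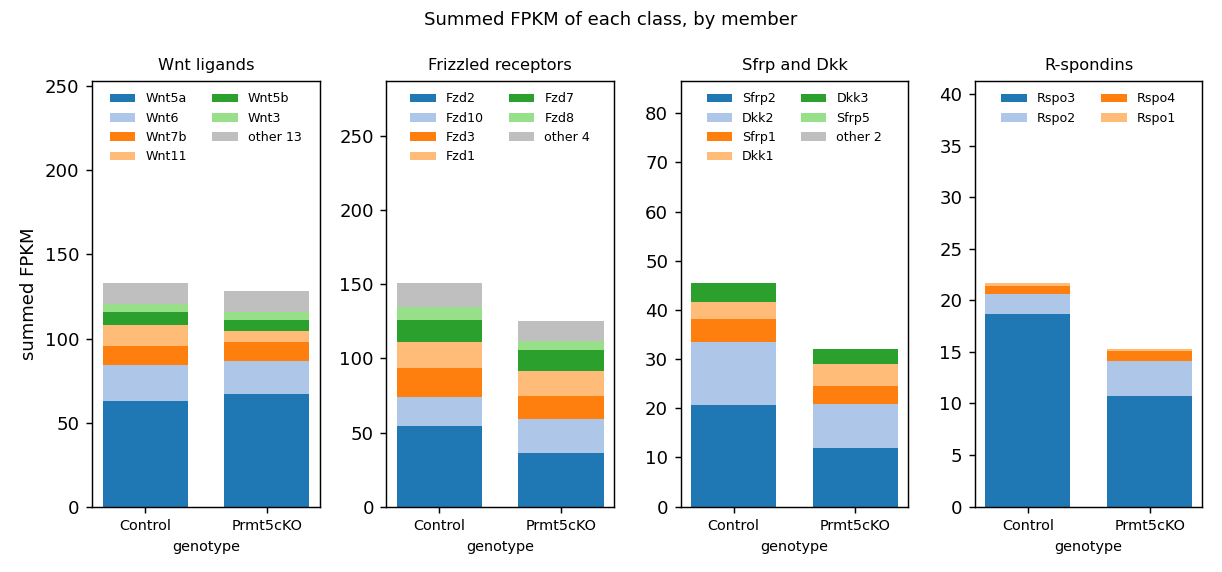
Summed FPKM of the members of 4 classes in control and Prmt5cKO, stacked by member (the 6 most abundant of each class by name, the others in grey); each panel has its own axis from 0, and each value is the authors' single value per genotype. The ligand bars are nearly equal, with Wnt5a as the largest block, and the other 3 classes are lower in Prmt5cKO.

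Antagonists of the Sfrp and Dkk families had a lower value in Prmt5cKO for 4 of 5 members at this level, where 69.8% of all genes did. Of the 5 members 2 fell, against 17.6% of all genes. Sfrp2, a secreted Wnt-binding protein with a Frizzled-like domain, fell from 20.7 FPKM in control to 12.0 in Prmt5cKO, for which the authors' deposited table lists a log2 fold of -0.79 and q = 5.77e-05. Its relative Sfrp1 was at 4.68 and 3.50 FPKM, with q = 0.144 by the authors' deposited table. Sfrp4 and Sfrp5 were under 0.1 FPKM in both genotypes. Dkk2 fell from 12.7 to 9.0 FPKM (by the authors' deposited table a log2 fold of -0.50, q = 0.00118). Dkk1, an inhibitor of Lrp5 and Lrp6 that is itself a target of the pathway, was at 3.46 and 4.59 FPKM, with q = 0.288 by the authors' deposited table. Dkk3, a divergent member of the family, did not pass, at 3.88 and 2.94 FPKM. Among the 5 antagonists with a mean of at least 1 FPKM, Dkk1 was the member with the higher value in Prmt5cKO, and it ranked below Sfrp1 and Dkk3 in control and above both in Prmt5cKO. The 8 antagonists summed to 45.5 FPKM in control and 32.2 in Prmt5cKO, 70.6% of control. This sum leaves out antagonists that the symbol rule does not pick. Frzb, at 31.2 FPKM in control and 37.0 in Prmt5cKO, was above each of the 8 and did not pass, and Wif1 fell from 16.1 to 11.4.

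R-spondins went both ways. Rspo3 fell from 18.6 to 10.7 FPKM, and the authors' deposited table gives it a log2 fold of -0.80 and q = 2.77e-06. Rspo2, an R-spondin of the apical ridge that limb outgrowth needs, rose from 1.95 to 3.44 FPKM, and the authors' deposited table gives it a log2 fold of 0.82 and q = 0.00216. The level of Rspo3 was 9.57 times that of Rspo2 in control and 3.12 times in Prmt5cKO. Rspo2 thus took 9.0% of the summed FPKM of R-spondins in control and 22.5% in Prmt5cKO, while the sum over all 4 went from 21.7 to 15.3 FPKM. Rspo4 was at 0.757 and 0.883 FPKM and Rspo1 at 0.364 and 0.258, both under the minimum.

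Beside Rspo2, 4 of the 9 apical ridge markers that reached 1 FPKM rose (Fgf8, Sp6, Sp8 and Sp9) and none fell, where 4.39% of all genes rose and 17.6% fell, and the 11 markers of the ridge summed to 43.7 FPKM in control and 59.4 in Prmt5cKO. Fgf8, the growth factor that defines the ridge, was at 7.17 and 14.4 FPKM, and none of the 11 was listed at 0 in both genotypes. The part of the ridge in the rise of Rspo2 was not tested. Macrophage markers also moved with the genotype, from a sum of 29.3 FPKM to 54.5 with 7 of 8 at this level risen (C1qb, C1qc, Csf1r and Emr1 among them), against 4.39% of all genes, and their part in the members' values was not tested either.

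Of the Lgr receptors, which bind R-spondins, Lgr4 fell from 14.6 FPKM in control to 10.8 in Prmt5cKO, for which the authors' deposited table lists a log2 fold of -0.44 and q = 7.58e-04. It held 87.9% of the summed FPKM of these receptors in control and 85.9% in Prmt5cKO. Lgr5, also a target gene of the pathway, did not pass, at 1.78 and 1.49 FPKM, and Lgr6 was at 0.231 and 0.268. So the most abundant R-spondin and the most abundant of its receptors were both lower in Prmt5cKO.

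**Figure D3:**
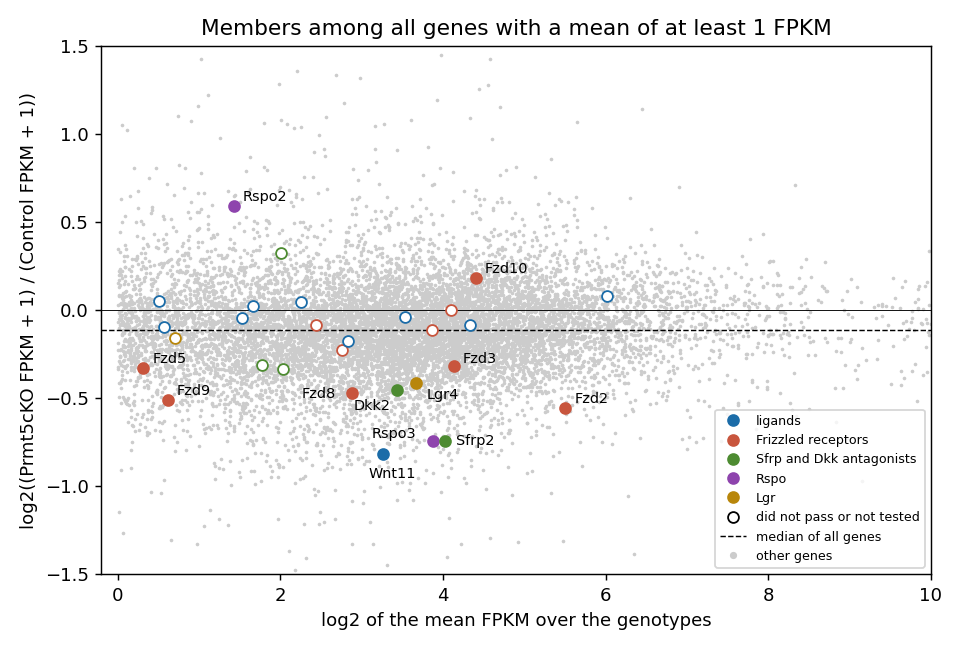
Log2 ratio of Prmt5cKO to control (1 FPKM added to both values) against the log2 of the mean FPKM for all 11674 single genes with a mean of at least 1 FPKM (grey) and the 29 members (circles coloured by class, filled where q was under 0.05), with the median of all genes as a dashed line; 40 genes lie beyond the vertical axis and 88 beyond the horizontal axis, none of them members. Wnt11, Rspo3 and Sfrp2 are the lowest members, Rspo2 is the highest, and most open circles lie around the dashed line.

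The falls of Wnt11, Sfrp2 and Rspo3 were the largest among the members with a mean of at least 5 FPKM, each to between 53.2% and 57.7% of control. Genes of cartilage and joints fell in the same comparison. Of the 5 cartilage markers that reached 1 FPKM 4 fell (Sox9, Sox5, Col2a1 and Col9a1), against 17.6% of all genes, and Sox6 was not tested; the 7 markers in all summed to 223 FPKM in control and 107 in Prmt5cKO, with Sox9 at 15.1 and 9.98 and Col2a1 at 64.8 and 38.2. All 4 joint markers at this level fell (Gdf5, Erg, Osr1 and Osr2). The sum of the 5, which include the member Wnt9a, was 37.7 and 18.5 FPKM. Of the 7 mesenchymal markers measured 2 were not tested and 5 did not pass, with a sum of 517 and 518 FPKM. The part of cartilage or joint cells in the falls of the members was not tested.

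The remaining members were low in these forelimbs. Of the 15 members with a mean under 1 FPKM, Wnt10a, at 0.789 FPKM in control and 0.733 in Prmt5cKO, lay next to the minimum with Rspo4, Wnt9a and Wnt16, and 11 were under 0.5 FPKM in both genotypes. Wnt3a was at 0.498 FPKM in control and 0.307 in Prmt5cKO, Wnt2b at 0.490 and 0.421, and Wnt2 at 0.409 and 0.221. Wnt8a was at 0.0807 and 0.275. Wnt1 and Dkk4 were listed at 0 in control and at 0.0221 and 0.0413 FPKM in Prmt5cKO, and Wnt8b was listed at 0 in both. No q among the 15 was under 0.05 in the authors' deposited table.

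In the genome 4 pairs of ligands lie side by side, and neighbours differed in level. Wnt6 and Wnt10a lie 6.19 kb apart on chromosome 1 with 20.8 and 0.789 FPKM in control. Wnt3 and Wnt9b lie 24.3 kb apart on chromosome 11 with 4.69 and 1.57 FPKM, and Wnt9a and Wnt3a, 16.2 kb apart on the same chromosome, with 0.827 and 0.498. Wnt10b stood at 1.38 FPKM and Wnt1, 11.7 kb away on chromosome 15, was listed at 0. Wnt10a, Wnt9a, Wnt3a and Wnt1 were under the minimum mean of 1 FPKM, so they could not be called. Wnt6, Wnt3, Wnt9b and Wnt10b could be called and did not pass, where 17.6% of all genes fell and 4.39% rose.

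The members that changed are spread over the genome. In GRCm38 (mm10) with GENCODE M21, Wnt11 lies on chromosome 7 from 98835112 to 98855195, Rspo3 on chromosome 10 from 29452416 to 29535867, Rspo2 on chromosome 15 from 43020794 to 43170826 and Sfrp2 on chromosome 3 from 83766321 to 83774316. Fzd2 lies on chromosome 11 from 102604396 to 102608058, Fzd10 on chromosome 5 from 128600844 to 128604093, Dkk2 on chromosome 3 from 132085292 to 132180304 and Lgr4 on chromosome 2 from 109917647 to 110014257. All are protein-coding, and the FPKM is given per gene, not per transcript. For 7 members (Wnt5a, Wnt7b, Wnt11, Fzd5, Fzd6, Sfrp2 and Rspo3) some exonic bases are shared with a gene or pseudogene on the opposite strand, up to 1233 bases for Fzd5. The sources used here do not say whether the libraries kept the strand, so reads from such partners cannot be told apart from the members' own.

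Around the ligands and receptors, 36 further genes for making, binding and relaying Wnt signals were examined, of which 31 reached 1 FPKM. Of these 7 fell (22.6%, against 17.6% of all genes), 1 rose, 4 were not tested by the authors and 19 did not pass. Porcn, the acyltransferase that Wnts need for release, fell from 4.64 to 2.36 FPKM, 50.8% of control (by the authors' deposited table a log2 fold of -0.98, q = 2.65e-04). It is X-linked, as is Gpc3, a cell surface glypican, which fell from 363 to 252 FPKM. Wls, the carrier that acts after Porcn, was at 77.8 and 68.8 FPKM, with q = 0.272 by the authors' deposited table. The secreted inhibitor Wif1 fell from 16.1 to 11.4 FPKM, the secreted Cthrc1 from 7.77 to 4.49 and the planar polarity factor Prickle2 from 8.11 to 5.48. Gpc6, another glypican, and Reck, a membrane-anchored protein that takes part in Wnt7 signalling, fell from 17.1 to 13.5 and from 9.82 to 7.6 FPKM. Apcdd1, a membrane inhibitor of the pathway, rose from 19.5 to 21.7 FPKM (by the authors' deposited table a log2 fold of 0.16, q = 0.0402).

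The co-receptor Lrp6 was at 26.8 FPKM in control and 27.2 in Prmt5cKO. Lrp5 was at 7.76 and 8.09 FPKM. Ror2, the co-receptor of Wnt5a, was at 9.84 and 9.08 FPKM. Frzb, the Sfrp relative that the symbol rule leaves out, was at 31.2 and 37.0 FPKM, with q = 0.123 by the authors' deposited table, higher than Sfrp2 in both genotypes. The ligases that R-spondins bind, Znrf3 and Rnf43, were at 5.26 and 5.20 and at 1.14 and 1.48 FPKM. None of these 6 genes passed.

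**Figure D4:**
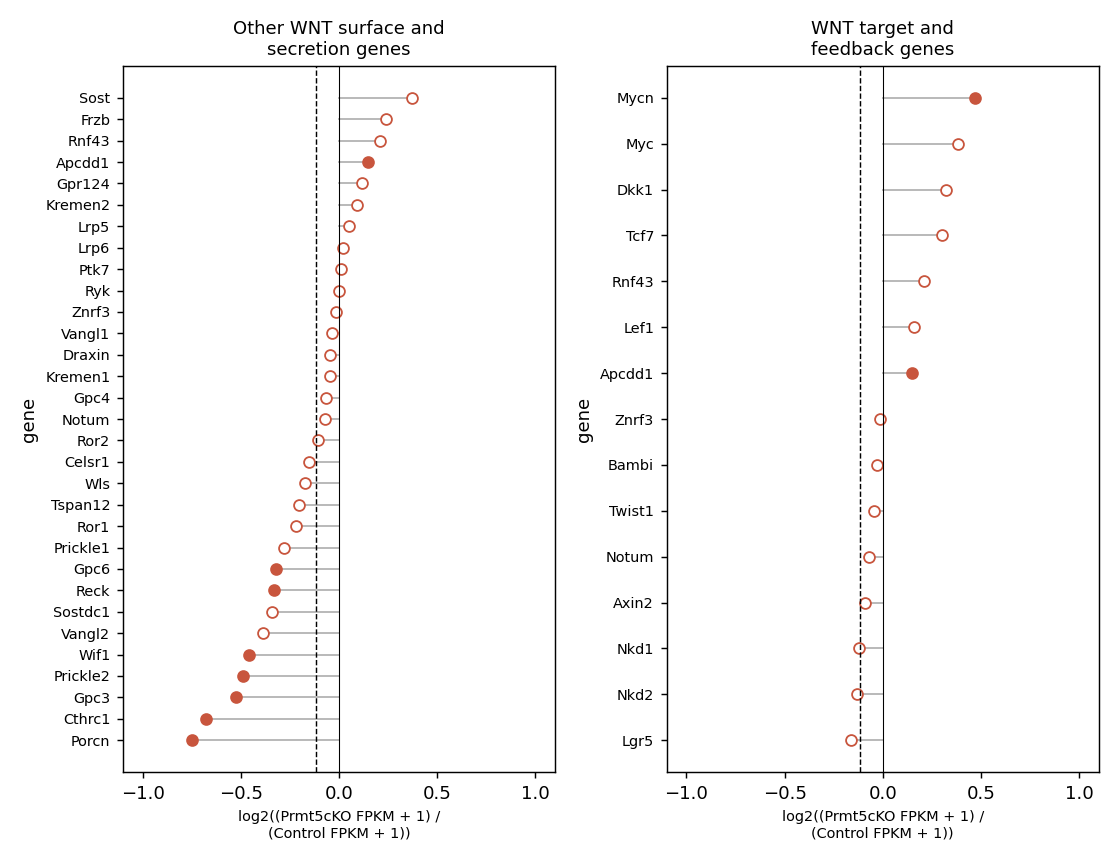
Log2 ratio of Prmt5cKO to control (1 FPKM added to both values) for the 31 other surface and secretion genes (left) and the 15 target and feedback genes (right) with a mean of at least 1 FPKM, filled where q was under 0.05; the solid line is a ratio of 1 and the dashed line the median of all genes. Porcn, Cthrc1 and Gpc3 are lowest on the left, and Mycn is highest on the right.

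Target and feedback genes of the beta-catenin branch gave 2 rises and no fall among 15 that reached 1 FPKM, where 4.39% of all genes rose and 17.6% fell, with 12 that did not pass and 1 not tested. Mycn, a growth-promoting transcription factor with other inputs besides Wnt, rose from 31.8 to 44.5 FPKM (by the authors' deposited table a log2 fold of 0.48, q = 0.00133), and Apcdd1, given above, was the other. Axin2, the most used readout of the branch, was not tested and had 26.3 FPKM in control and 24.7 in Prmt5cKO. Lef1 was at 9.80 and 11.1 FPKM, Nkd1 at 4.95 and 4.49, and Notum, a secreted enzyme that removes the lipid of Wnts, at 5.39 and 5.09, and none of them passed. The 15 genes include the members Dkk1 and Lgr5. Apcdd1, Notum, Znrf3 and Rnf43 are also among the 36 further genes above, so the lists overlap and the rise of Apcdd1 is counted in both. Of the 20 genes listed as targets 19 were found as single symbols, without Ccnd1. The median log2 ratio of the 15 was -0.01, beside -0.12 over all genes. The count of no fall rests on adjusted values alone, because the table holds no unadjusted p-values.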

How the data were processed

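Values are those of the authors' deposited table, which per the file headers holds 28092 rows, each with 1 FPKM per genotype, a q-value and the log2 fold of Prmt5cKO over control. Cufflinks 2.1.1, TopHat2 2.0.10 and Bowtie2 2.1.0 and the build mm10 are listed, with no role, per the submitters' processing notes. Not given in the sources used here are the annotation, the test behind the q-value and the way replicates were combined. FPKM corrects for length and library total, not for composition.

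Rows that name no gene (4367, 15.5%) or several genes (597) were left out, and 1 row per symbol, that with the highest mean, was kept. A fold of 0 with a q of 1 beside unequal FPKM was read as not tested (1057 genes at a mean of at least 1 FPKM); whether other rows with a q of 1 were tested is unknown. The authors' log2 fold change differed from the log2 ratio of the FPKM columns by at most 1.27e-05 over 10614 genes. Log2 ratios for classes used a pseudocount of 1 FPKM, which understates changes of low genes. Values per sample are not held in the files used here, so no test was fitted, no p-value was computed and every call rests on the authors' q under 0.05. Whether that q reflects the spread between replicates is unknown. The rule for the members uses symbols only, but this gene set and the lists were proposed with earlier results of these data known.

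All members with a mean of at least 1 FPKM are named, those below it by name where either value reached 0.5 FPKM, from the 2 lists of other pathway genes those past the threshold, and from each marker list up to 4 of those past it; further names (Wnt3a, Wnt2b, Wnt2, Wnt8a, Wnt1, Dkk4, Wnt8b, Sfrp4, Sfrp5, Lgr6 and Rspo1 among the members, and genes that did not pass in the lists) were chosen after their values were seen. Marker lists of endothelium and muscle were also read. The 6 endothelial genes summed to 61.6 and 55.1 FPKM with 1 fall (Cd34, 16.7%), against 17.6% of all genes. The 6 muscle genes summed to 40.6 and 38.6 FPKM, with no change among 4 at a mean of at least 1 FPKM. Alternatives were other minimum levels, q thresholds, pseudocounts, scalings and row choices. The counting of rises and falls was checked on simulated data with q-values set in advance, as was a median over all genes without a pseudocount. The medians of the classes were not checked in this way. Python 3.11.15, pandas and matplotlib were used.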

Additional observations from a re-analysis of the deposited data

How the results depend on the processing

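The 10 falls and 2 rises among the members were also counted at a q under 0.1, which gave 10 and 2. Leaving out the minimum level could not change these counts, because no member under 1 FPKM had a q under 0.05. Subtracting the median log2 fold of all genes (-0.13) kept the authors' q and moved only the cut for direction. It could not change them either, because the smallest fall, of Fzd3, had a log2 fold of -0.34. The choice of the row with the smallest q, or of the sum over rows, could not change a member's value, because each member has 1 row. With a minimum mean of 5 FPKM 8 fell and 1 rose, without Fzd5, Fzd9 and Rspo2, against 18.2% and 4.57% of 8483 genes at that level. At a q under 0.01 8 fell and 1 rose, without Fzd3, Fzd9 and Fzd10. The shares over all genes at a q under 0.01 or under 0.1 were not counted, so these member counts have no background beside them. At a q under 0.01 the rises among the other surface and secretion genes went from 1 to 0 and among the target genes from 2 to 1. After rescaling by the median ratio of all genes, the median log2 ratio was 0.068 for the ligands, 0.033 for the R-spondins, -0.15 for the Frizzled receptors, -0.23 for the antagonists and -0.19 for the Lgr receptors, so the sign changed for ligands and R-spondins. A minimum mean of 5 FPKM gave medians of -0.17 for 8 Frizzled receptors, -0.60 for 2 antagonists, and -0.75 and -0.41 for the single R-spondin (Rspo3) and Lgr receptor (Lgr4) left; no minimum level gave -0.16 for the 3 Lgr receptors. These shifts follow from the genes each setting keeps or from the common factor. The median over all members ranged from -0.23 to -0.06 over its 6 alternatives. No replicate could be left out, and no paired analysis was possible because the files used here hold 1 value per genotype and no columns per replicate. Depth is unknown, so what it limits cannot be stated.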
